A study of Homo sapiens with 12 samples.

Results

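The genes described here are the nuclear genes that encode subunits of the mitochondrial respiratory chain and of ATP synthase. They were taken by gene symbol from a table of 36137 genes: the NDUFA, NDUFB, NDUFC, NDUFS and NDUFV subunits of complex I, the SDH subunits of complex II, the UQCR genes and CYC1 of complex III, 10 COX subunits of complex IV, and the ATP5 genes. The name patterns matched 103 genes. Of these, 25 were pseudogenes and were left out, and ATP5L2, with 20 counts summed over the 12 libraries, was under the minimum of 100 counts. The remaining 77 genes were all abundant enough to be tested among 18468 genes. They comprised 37 genes of complex I, 4 of complex II, 9 of complex III, 10 of complex IV and 17 of ATP synthase. ATP5S and ATP5SL carry the ATP5 name but are not structural subunits, and they are counted with ATP synthase by name only.

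LNCaP is a prostate cancer cell line established from a lymph node metastasis, and it depends on androgen for much of its gene expression. All 12 libraries came from LNCaP cells that were transfected for 48 h, serum starved for 12 h and then treated for 24 h. A total of 4 groups of 3 libraries received non-specific (NSP) siRNA with ethanol vehicle, NSP siRNA with 2.5 nM dihydrotestosterone (DHT), PXN siRNA with vehicle, or PXN siRNA with 2.5 nM DHT. PXN encodes paxillin, an adaptor protein of focal adhesions, and DHT is a potent natural androgen. The design asks how the genes respond to loss of PXN, to androgen, and to each in the presence of the other. Replicates are numbered in the labels, which do not say that they were separate cultures, so the p-values measure only how far these samples differ among themselves, and that spread may be technical. In counts from a whole culture, fewer cells carrying an RNA and less of it per cell cannot be told apart.

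The respiratory chain passes electrons from NADH (through complex I) and from succinate (through complex II) by way of ubiquinone to complex III, cytochrome c and complex IV, which reduces oxygen. Complexes I, III and IV pump protons across the inner mitochondrial membrane, and ATP synthase uses the gradient to make ATP. Complex II is made from nuclear genes alone, whereas the other complexes also hold subunits translated inside the mitochondrion from mitochondrial DNA. Expression of the nuclear genes is known to depend on transcription factors such as NRF1, GABP of the ETS family, and YY1.

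Library totals lay between 34321000 and 38633456 assigned counts. PXN itself was at 106 to 112 CPM (counts normalised to library size and composition) in the 3 libraries with NSP siRNA and vehicle and at 14.9 to 21.2 CPM in the 3 with PXN siRNA and vehicle, and under DHT at 106 ± 7.03 against 18.2 ± 1.70 CPM (SD, n = 3). Among 9 prostate luminal markers, all were detected, and 7 fell with PXN siRNA under each treatment, with a median log2 fold change over the 9 of -0.35 under vehicle and -0.81 under DHT. The summed level of 13 markers of fibroblasts, smooth muscle, endothelium, leukocytes and basal epithelium was 45.3 to 74.5 CPM over the libraries. It was 50.9 ± 4.64 CPM with NSP siRNA and 63.5 ± 1.34 CPM with PXN siRNA under vehicle, and 50.3 ± 4.74 and 70.7 ± 4.50 CPM under DHT (SD, n = 3), mostly from COL1A1 and VWF, while the leukocyte genes PTPRC and CD68 and the basal genes KRT5 and TP63 were near 0. Only 6 of these markers of other cells had enough counts to test, and 2 fell and 2 rose with PXN siRNA under each treatment. Their log2 fold changes ran from -2.22 to 0.57 under vehicle and from -1.70 to 0.82 under DHT. The part of these markers in the results below was not tested.

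With PXN siRNA, respiratory chain genes fell in every complex and under both treatments. Under vehicle, 58 of the 77 genes fell, none rose and 19 did not pass the test (edgeR's quasi-likelihood test, called at an adjusted p under 0.05 by the Benjamini-Hochberg method over all genes tested). Among all 18468 genes, 26.3% fell and 23.9% rose in this comparison. The median log2 fold change of the 77 genes was -0.29, beside 0.02 over all genes. Under DHT, 54 of the 77 genes fell, 3 rose and 20 did not pass, against 26.7% of all genes lower and 25.0% higher. The median log2 fold change was -0.26, beside 0.03 over all genes. The vehicle and DHT comparisons share no library, and 53 genes fell in both, 5 only passed under vehicle, and SDHA only passed under DHT. They are not independent, as the same fit gave both and same-numbered libraries with the same siRNA deviated together. The difference between the 2 comparisons is tested as the interaction, given further below.

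**Figure D1:**
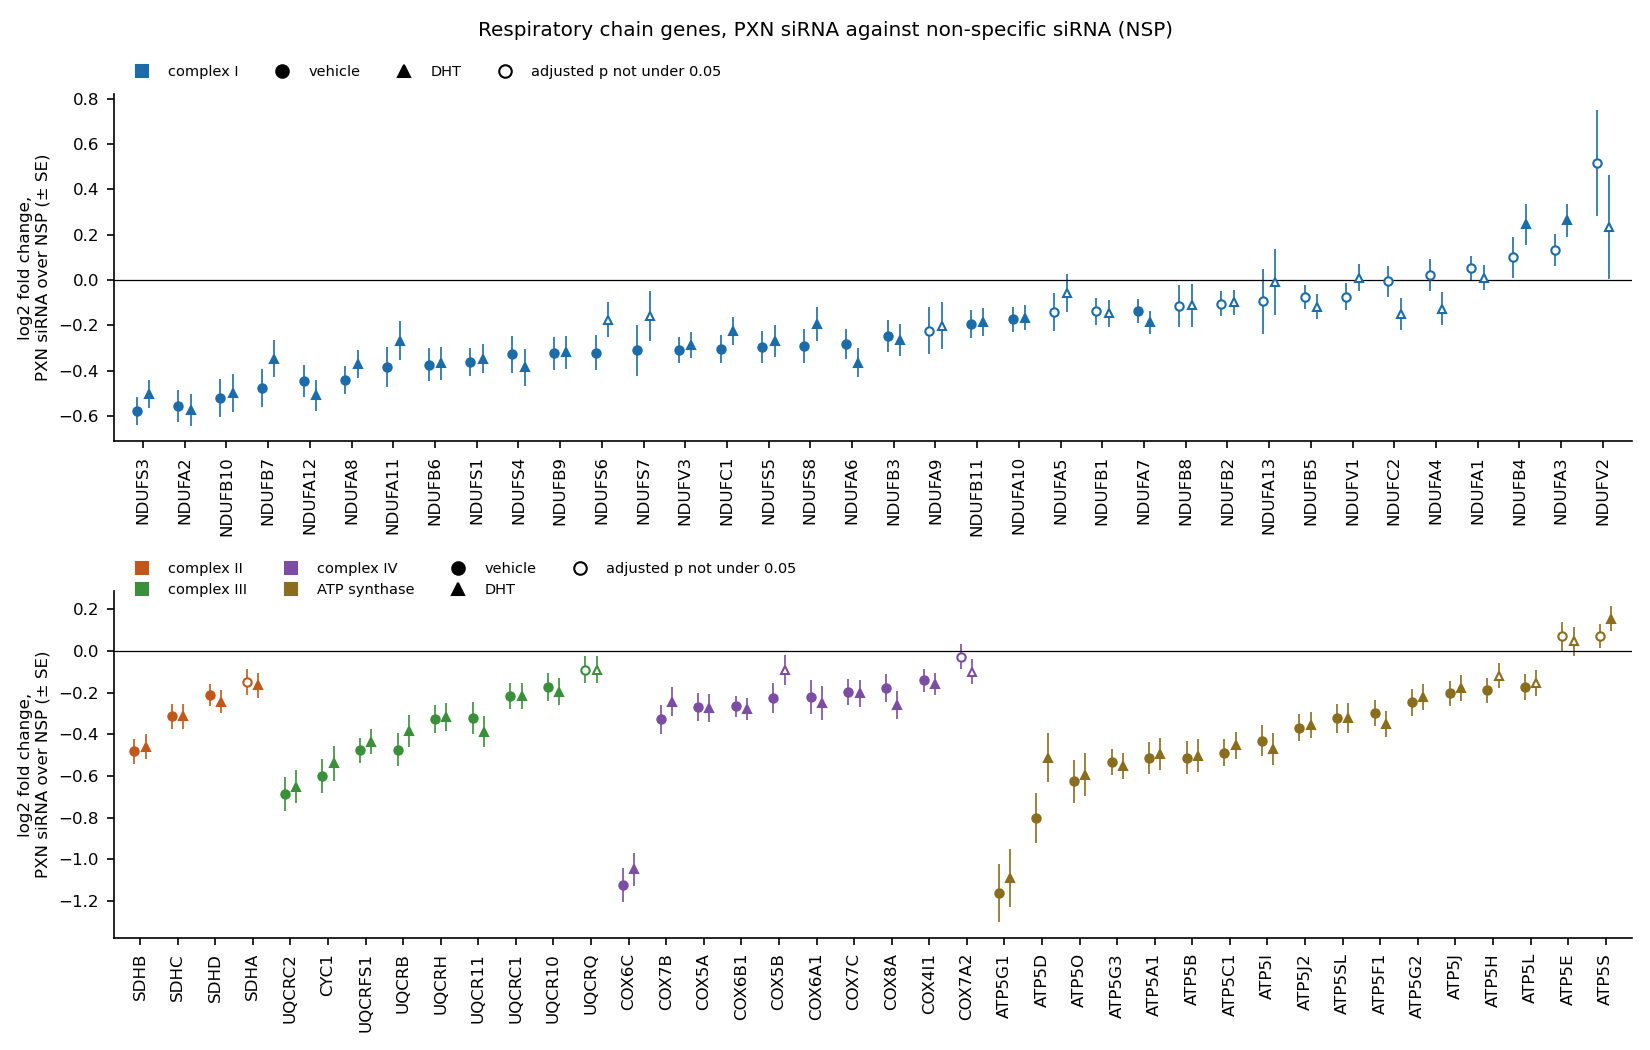
Log2 fold change of PXN siRNA over NSP siRNA (vertical axis, points ± SE) for 76 of the 77 genes, ordered by complex (colour) and by the change under vehicle (circles) beside that under DHT (triangles); open symbols did not pass adjusted p under 0.05. Most points lie below 0, ATP5G1 and COX6C lie lowest, and NDUFV2 has the widest error.

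All 5 complexes held genes that fell. Under vehicle, 23 of 37 genes of complex I fell, 3 of 4 of complex II, 8 of 9 of complex III, 9 of 10 of complex IV and 15 of 17 of ATP synthase. The median log2 fold change was -0.28 in complex I, -0.26 in complex II, -0.33 in complex III, -0.22 in complex IV and -0.37 in ATP synthase. Under DHT, 21, 4, 8, 8 and 13 genes fell in that order, with medians of -0.19, -0.28, -0.39, -0.25 and -0.36. No difference between complexes was tested. Separation of the libraries gave a similar count: in 59 of the 77 genes every PXN siRNA library lay below every NSP library under vehicle, and in 64 under DHT. The same held for 29.6% and 30.4% of all genes.

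The size of the falls depends on how the libraries are scaled. With upper-quartile scaling the median of all genes moved to 0.12 under vehicle and 0.13 under DHT, so fewer of the 77 genes passed as lower (42 and 37) and 5 and 3 passed as higher. Among all 18468 genes, 3754 and 3850 passed as lower. Of all called genes, 60.2% were then higher under vehicle and 60.7% under DHT, against 47.7% and 48.3% with the scaling used throughout. With the same upper-quartile scaling, 18 genes of complex I, 2 of complex II, 6 of complex III, 4 of complex IV and 12 of ATP synthase passed as lower under vehicle. Cyclic loess scaling with limma-voom, chosen after seeing the data, left 38 of the 77 genes lower under vehicle and 32 under DHT. It called 4502 and 4568 of all 18468 genes lower. In complex IV, COX4I1, COX5A, COX6A1, COX6B1, COX7C and COX8A then lost their calls under both treatments. COX5B also lost its call under vehicle and COX7B under DHT, while COX6C kept both. Relative to the median of all genes, the 77 genes stood at -0.31 and -0.29 with the scaling used throughout and with upper-quartile scaling, and at -0.17 and -0.12 with cyclic loess scaling. The median of all genes differed by level. With the scaling used throughout, genes under 10 CPM had medians of 0.23 and 0.27. Genes of at least 50 CPM outside the 77 had medians of -0.13 and -0.15, and 45.2% and 47.7% of them fell. Of the 77 genes, 63 were over 50 CPM.

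Taken as one pool of RNA, the 77 genes made up 1.21%, 1.13% and 1.23% of all counts in the 3 libraries with NSP siRNA and vehicle. They made up 0.978%, 1.05% and 1.05% in the 3 with PXN siRNA and vehicle. With DHT the shares were 1.14%, 1.11% and 1.17% with NSP siRNA and 0.995%, 1.04% and 1.01% with PXN siRNA. Every PXN siRNA library was below every NSP library. ATP synthase genes gave the largest share of the pool, 0.453% ± 0.0278 of counts with NSP siRNA and 0.363% ± 0.0205 with PXN siRNA under vehicle (SD, n = 3). For complex I the shares were 0.342% ± 0.0116 and 0.317% ± 0.00850, and for complex III 0.163% ± 0.00878 and 0.134% ± 0.00670.

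The mRNAs encoded in mitochondrial DNA did not share this direction. They took 3.54%, 5.80% and 3.72% of counts with NSP siRNA and vehicle and 5.70%, 6.28% and 5.51% with PXN siRNA and vehicle. The library of replicate 2 with NSP siRNA and vehicle stood apart and overlapped the PXN siRNA libraries. Under DHT the shares were 4.28%, 4.96% and 3.87% with NSP siRNA and 5.65%, 5.99% and 5.94% with PXN siRNA, without overlap. None of the 13 mitochondrially encoded genes fell. Under vehicle, MT-ND3, MT-ND6 and MT-CYB rose, with a median log2 fold change of 0.32 over the 13. MT-ND3 and MT-CYB rose under DHT, with a median of 0.27. Over all genes, 23.9% rose under vehicle and 25.0% under DHT, with medians of 0.02 and 0.03. The 3 and 2 of 13 called higher are thus not above the share over all genes. The number that rose under vehicle was 13 without replicate 2 of the NSP vehicle group, and 0 without replicate 1 or replicate 3 of that group or without replicate 2 of the PXN siRNA vehicle group, and it was 1 without replicate 1 of that group. Under DHT it was 7 without replicate 2 of the NSP vehicle group 1 without replicate 3 of the PXN siRNA vehicle group or replicate 1 of the PXN siRNA DHT group, and 0 without replicate 1 or 3 of the NSP DHT group or replicate 2 or 3 of the PXN siRNA DHT group. With the replicate number as a block, 11 of the 13 rose under vehicle and 12 under DHT. Of all 18468 genes, 5206 and 5368 rose with the block. Upper-quartile scaling gave 8 and 5 of the 13, beside 5668 and 5952 of all genes. Cyclic loess scaling gave 13 in each, beside 4480 and 4533 of all genes. The median stayed above 0 in each of these fits and under each scaling tried.

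**Figure D2:**
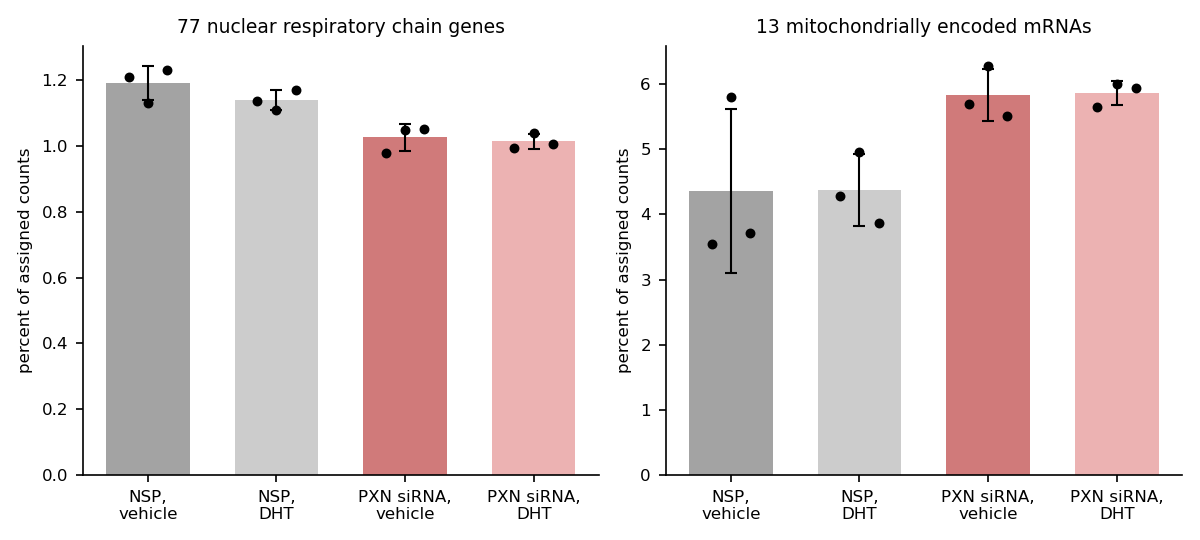
Share of all assigned counts (percent, vertical axes from 0) taken by the 77 nuclear respiratory chain genes (left) and by the 13 mitochondrially encoded mRNAs (right); bars are group means, error bars SD and points the 3 libraries of each group. The nuclear share is lower in all 6 PXN siRNA libraries, while the mitochondrial share is higher on average and 1 NSP vehicle library, at 5.80%, lies among the PXN siRNA libraries.

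Complex I is the entry point for electrons from NADH. NDUFS3, a core subunit, was at 79.5, 78.2 and 80.1 CPM with NSP siRNA and vehicle and at 49.2, 57.4 and 52.9 CPM with PXN siRNA. Under DHT it went from 73.9, 75.1 and 77.9 CPM to 52.3, 56.0 and 51.6 CPM. All 6 PXN siRNA libraries were below all 6 NSP libraries, with log2 fold changes of -0.58 (adjusted p = 3.58e-06, edgeR) and -0.50 (adjusted p = 1.13e-05). NDUFS1, which carries iron-sulfur clusters, fell by 0.36 and 0.35 on the log2 scale. NDUFS8, an iron-sulfur subunit, was at 87.0, 88.3 and 94.2 CPM against 67.4, 70.5 and 82.2 CPM under vehicle, and at 92.1, 98.8 and 95.6 CPM against 77.9, 88.3 and 84.2 CPM under DHT. Its groups did not overlap and it was lower in both, at -0.29 and -0.19 (log2). Both NDUFS8 calls were lost with cyclic loess scaling, and the DHT call with upper-quartile scaling. NDUFS7 was at 11.9, 13 and 13.4 CPM against 9.75, 9.42 and 11.7 CPM under vehicle, and at 14.4, 16.4 and 13.8 CPM against 12.5, 15.1 and 12.3 CPM under DHT. It passed under vehicle at -0.31 and not under DHT, where the groups overlapped, at -0.16. With upper-quartile scaling NDUFS7 did not pass under vehicle (-0.21). The NDUFS8 call under DHT was lost without replicate 2 or 3 of the NSP group or replicate 1 or 3 of the PXN siRNA group (adjusted p up to 0.157, edgeR), and the NDUFS7 call without replicate 2 or 3 of the NSP or 1 or 2 of the PXN siRNA vehicle group (up to 0.107). NDUFV1, which binds NADH and the flavin, stood at -0.07 and 0.01 and did not pass.

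NDUFV2, also a core subunit, had 528 counts in all and was the least abundant of the 77 genes. A pseudogene of it, NDUFV2P1, held 1519 counts, so its value (0.52 under vehicle, not passed) is uncertain.

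Among the 30 accessory subunits of complex I, 18 fell under vehicle and 17 under DHT, while 2 rose under DHT. NDUFA2 was at 37.1, 35.9 and 39.9 CPM with NSP siRNA and vehicle and at 25.2, 24.8 and 26.8 CPM with PXN siRNA. Under DHT it was at 38.2, 34.8 and 38.8 CPM against 25.6, 26.2 and 23.3 CPM. Its libraries separated without overlap, and its log2 fold changes were -0.56 and -0.57 (adjusted p = 1.59e-05 and 1.15e-05, edgeR). NDUFB10, NDUFB7, NDUFA12 and NDUFA8 fell by 0.52, 0.48, 0.45 and 0.44 under vehicle on the log2 scale, and each fell under DHT too.

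NDUFA3 and NDUFB4 were the complex I genes that rose under DHT. NDUFA3 was at 56.0, 48.8 and 51.8 CPM with NSP siRNA and DHT and at 64.2, 61.3 and 62.5 CPM with PXN siRNA and DHT, without overlap (log2 fold change 0.26, adjusted p = 0.0067, edgeR). Without replicate 2 of the NSP DHT group the adjusted p was 0.0588. Under vehicle it was at 57.3, 55.7 and 49.9 against 61.2, 54.8 and 62.6 CPM, which overlapped, and did not pass (0.13). NDUFB4 was at 324, 257 and 290 CPM with NSP siRNA and DHT and at 371, 324 and 338 CPM with PXN siRNA and DHT. The highest NSP and the lowest PXN siRNA library of NDUFB4 met, and the rise of 0.25 (SE 0.0905, adjusted p = 0.0342, edgeR) was lost without replicate 2 or 3 of the NSP DHT group or replicate 1 or 3 of the PXN siRNA DHT group (adjusted p up to 0.230). With vehicle, NDUFB4 was at 402, 332 and 379 against 409, 379 and 406 CPM, which overlapped, and did not pass (0.10). NDUFA1, NDUFC2 and NDUFA4 did not pass in either comparison, with log2 fold changes of 0.05, -0.01 and 0.02 under vehicle. NDUFA4 bears a complex I name and is now placed with complex IV.

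**Figure D3:**
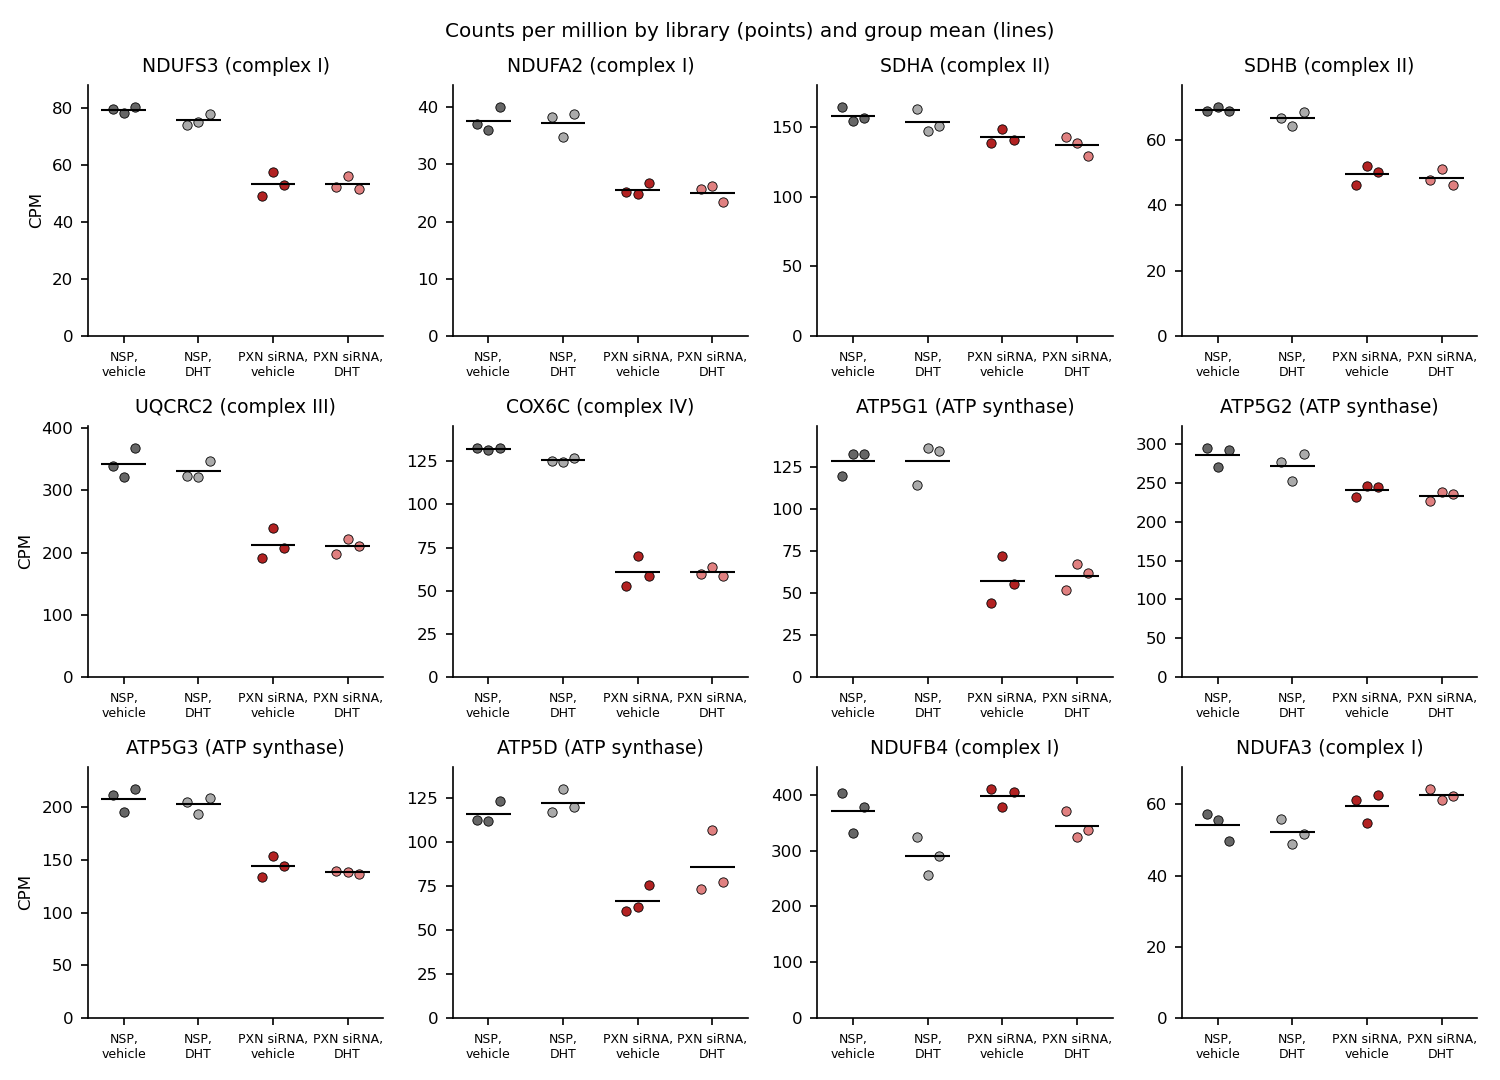
CPM (vertical axes from 0) of 12 genes in each of the 12 libraries (points), with group means (lines), for NSP and PXN siRNA under vehicle and DHT. ATP5G1, COX6C and UQCRC2 are clearly lower in all 6 PXN siRNA libraries, ATP5G2 and SDHA less so, and NDUFB4 and NDUFA3 are not lower.

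Complex II oxidises succinate and is also an enzyme of the tricarboxylic acid cycle. SDHB, its iron-sulfur subunit, was at 68.9, 69.9 and 68.9 CPM with NSP siRNA and vehicle and at 46.3, 52.2 and 50.3 CPM with PXN siRNA. In the DHT-treated cells it measured 66.8, 64.1 and 68.6 CPM against 47.7, 51.1 and 46.2 CPM. The separation was complete in both, with log2 fold changes of -0.48 and -0.46 (adjusted p = 1.39e-05 and 2.01e-05, edgeR). SDHC, a membrane anchor, was at 162, 154 and 168 CPM against 122, 137 and 130 CPM under vehicle and at 154, 151 and 162 CPM against 120, 129 and 126 CPM under DHT. The other anchor, SDHD, was at 68.2, 66.6 and 73.9 CPM against 61.2, 60.7 and 58.3 CPM under vehicle and at 65.1, 68.3 and 68.8 CPM against 57.6, 56.3 and 56.9 CPM under DHT. Neither gene's groups overlapped, and SDHC and SDHD fell by 0.31 and 0.21 under vehicle and by 0.31 and 0.24 under DHT on the log2 scale. The SDHD call was lost under both treatments with cyclic loess scaling and under vehicle with upper-quartile scaling. SDHA, the flavoprotein that holds the active site, was at 164, 154 and 156 CPM against 138, 149 and 141 CPM under vehicle and at 163, 147 and 151 CPM against 143, 139 and 129 CPM under DHT. Its libraries did not overlap, yet the difference of -0.15 missed the threshold (adjusted p = 0.0529, edgeR) and that of -0.17 under DHT passed (adjusted p = 0.0327). The call under DHT was lost without replicate 1 or 3 of the NSP group or replicate 2 or 3 of the PXN siRNA group (adjusted p up to 0.150, edgeR) and with upper-quartile scaling, and with the replicate block SDHA passed under vehicle (adjusted p = 0.0213). The value turned to 0.000129 under DHT with cyclic loess scaling, and SDHA pseudogenes held 9.83% as many counts as SDHA.

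Complex III passes electrons from ubiquinol to cytochrome c. UQCRC2, a core structural subunit, was at 339, 322 and 368 CPM with NSP siRNA and vehicle and at 192, 239 and 208 CPM with PXN siRNA. Under DHT it was at 323, 321 and 347 CPM against 199, 222 and 211 CPM. Its log2 fold changes were -0.69 and -0.65 (adjusted p = 8.4e-06 and 1.26e-05, edgeR), with no overlap. CYC1, the cytochrome c1 subunit that hands electrons to cytochrome c, was at 190, 205 and 197 CPM against 118, 142 and 131 CPM under vehicle. It was at 192, 200 and 201 CPM against 124, 154 and 129 CPM under DHT. These amount to -0.60 and -0.54 on the log2 scale, again without overlap. UQCRFS1, the Rieske iron-sulfur protein, fell by 0.48 and 0.43. UQCRQ was the complex III gene that did not pass in either comparison, at -0.09 in both.

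Complex IV reduces oxygen, and its catalytic core is encoded in mitochondrial DNA, so the nuclear genes here are its smaller subunits. COX6C was at 132, 131 and 132 CPM with NSP siRNA and vehicle and at 53.0, 70.2 and 58.6 CPM with PXN siRNA. With DHT it stood at 125, 125 and 127 CPM against 59.7, 63.7 and 58.7 CPM. The NSP libraries were close to each other, and every PXN siRNA library was far below them. PXN siRNA left 45.9% of the NSP mean under vehicle and 48.3% under DHT, as log2 fold changes of -1.12 (SE 0.0805, adjusted p = 1.32e-07, edgeR) and -1.05 (SE 0.0805, adjusted p = 2.23e-07).

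No other nuclear complex IV gene changed as much as COX6C. COX7B was next under vehicle, at 152, 136 and 156 CPM against 110, 120 and 123 CPM (-0.33, adjusted p = 0.00126, edgeR). With DHT it stood at 137, 133 and 152 CPM against 115, 123 and 119 CPM and fell by 0.24 on the log2 scale, where without replicate 3 of the NSP group the adjusted p was 0.0538. The DHT call of COX7B was also lost with upper-quartile and with cyclic loess scaling. COX6B1, a subunit facing the intermembrane space, was at 184, 185 and 181 CPM against 144, 156 and 156 CPM under vehicle and at 182, 180 and 184 CPM against 149, 150 and 151 CPM under DHT. The libraries of each group were close together, and it fell by 0.27 and 0.28 on the log2 scale. With cyclic loess scaling both COX6B1 calls were lost (-0.12 and -0.11, adjusted p = 0.0524 and 0.0808, limma-voom). COX4I1, the largest nuclear subunit, was lower by a small amount, -0.14 and -0.16, and its call under vehicle was kept without replicate 2 of the NSP vehicle group or replicate 1 or 2 of the NSP DHT group and lost without any 1 of the other 9 libraries (adjusted p up to 0.115, edgeR). Under DHT it was lost without replicate 1 of the NSP or replicate 3 of the PXN siRNA group (0.0973 and 0.101), and both calls were lost with upper-quartile scaling. With cyclic loess scaling it stood at 0.04 and 0.05. COX5B fell under vehicle (-0.23, lost without replicate 3 of the NSP or replicate 1 or 2 of the PXN siRNA vehicle group, adjusted p up to 0.0760 with edgeR) and did not pass under DHT (-0.09). Its vehicle call was also lost with upper-quartile and with cyclic loess scaling. COX7A2 did not pass in either, at -0.03 and -0.10.

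ATP synthase turns a ring of c subunits with the proton flow and makes ATP in its F1 head. Subunit c is encoded by 3 genes whose mature proteins are identical, and all 3 fell, by unequal amounts. ATP5G1 was at 120, 133 and 133 CPM with NSP siRNA and vehicle and at 44.3, 72.3 and 55.5 CPM with PXN siRNA. Under DHT it was at 115, 136 and 135 CPM against 51.8, 67.2 and 61.9 CPM. It varied more between replicates than most of the genes, but no library overlapped, and its log2 fold changes of -1.16 (SE 0.14, adjusted p = 1.03e-05, edgeR) and -1.09 (SE 0.14, adjusted p = 1.69e-05) were the largest falls of the 77 genes.

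ATP5G3 was at 211, 196 and 217 CPM against 134, 153 and 144 CPM under vehicle and at 205, 193 and 209 CPM against 139, 138 and 137 CPM under DHT (-0.53 and -0.55). ATP5G2 was at 294, 270 and 292 CPM against 231, 245 and 244 CPM under vehicle and at 277, 252 and 287 CPM against 226, 238 and 235 CPM under DHT (-0.25 and -0.22). Its call was lost under both treatments with cyclic loess scaling (-0.08 and -0.02) and under DHT with upper-quartile scaling (-0.12). The differences in size between the 3 genes were not tested.

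In the F1 head, 4 of 5 genes fell in each comparison. ATP5A1 and ATP5B, the alpha and beta subunits that form the catalytic sites, each fell by 0.51 under vehicle and by 0.50 under DHT on the log2 scale, and ATP5C1, the rotating gamma subunit, by 0.49 and 0.45. ATP5D, the delta subunit of the central stalk, was at 112, 112 and 123 CPM against 60.7, 63.1 and 75.8 CPM under vehicle. Under DHT it was at 117, 130 and 120 CPM against 73.2, 107 and 77.4 CPM, where replicate 2 lay nearest to the NSP libraries. Its log2 fold changes were -0.80 and -0.51 (adjusted p = 7.4e-05 and 0.00233, edgeR). ATP5E, the epsilon subunit, did not pass, at 0.07 and 0.05.

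The stalk and membrane subunits fell in 7 of 7 cases under vehicle and in 5 of 7 under DHT. ATP5O, which links the F1 head to the peripheral stalk, was at 36.3, 33.1 and 36.8 CPM against 19.2, 26.6 and 23.0 CPM under vehicle (-0.62, adjusted p = 0.000175, edgeR) and fell by 0.59 under DHT, from 30.9, 31.4 and 35.2 CPM to 20.5, 23.5 and 20.6 CPM. ATP5L, a membrane subunit, was at 126, 117 and 131 CPM against 103, 114 and 113 CPM under vehicle and at 110, 115 and 120 CPM against 101, 107 and 102 CPM under DHT, without overlap. It was lower by a small amount under vehicle (-0.17) and just missed under DHT (-0.15, adjusted p = 0.0508, edgeR), where it passed with the replicate block (0.0198). Without replicate 1 or 3 of the NSP or replicate 1 of the PXN siRNA vehicle group it did not pass under vehicle (up to 0.138). Upper-quartile and cyclic loess scaling also lost the vehicle call of ATP5L. ATP5S, which is not a subunit, was at 36.9, 37.1 and 36.7 CPM against 39, 40.5 and 36.7 CPM under vehicle, where it did not pass (0.07). From 35.0, 34.3 and 34.2 CPM to 40.3, 36.8 and 38.2 CPM it rose under DHT (0.15, adjusted p = 0.0366, edgeR), a call lost without replicate 1 or 2 of the NSP vehicle group, any library of the NSP DHT group, or replicate 1 or 3 of the PXN siRNA DHT group (adjusted p up to 0.146).

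Promoter sequences were compared because so many of the genes moved together. RefSeq windows of 300 bases (250 before to 50 after the listed start, GRCh38.p14) were at hand for 63 of the 77 genes, 75 windows in all. They were searched on both strands for the core words of 3 factors: CGCATGCG (NRF1), CCGGAAG (ETS) and AAGATGGCG (YY1). The ETS and YY1 words can overlap by the letters they share. The NRF1 word was in 14.7% of the 75 windows, in 3.12% of the 15881 windows of tested genes and in 2.02% of all 35116 windows used. The ETS word was in 28%, 15.7% and 10.3%, and the YY1 word in 13.3%, 3.16% and 1.75%, in the same order. Of the 63 genes, 20 held the ETS word and 17 of these fell under vehicle, while 30 of the 43 without it fell. The median log2 fold change was -0.22 with and -0.27 without the word. For NRF1, 9 of 11 genes with the word and 38 of 52 without it fell, with medians of -0.25 and -0.26. For YY1 the numbers were 7 of 9 with the word and 40 of 54 without it, with medians of -0.22 and -0.26. A word match is a description of the letters and not evidence of binding.

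The 250 bases before the start are shown for genes that fell by different amounts and for 1 that did not pass, with the ETS words in capitals. ATP5G1, NDUFS3 and SDHB were each the called gene with the lowest change in their complex among those with 1 window. UQCRC2 and COX7B were picked by the same rule, hold none of the 3 words and are not shown. ATP5G1 (listed as ATP5MC1, chr17:48892537-48892786, plus strand) fell most and its window holds none of the 3 words. NDUFS3 (chr11:47578824-47579073, plus strand) holds 2 ETS words, 1 on each strand, beginning 102 and 83 bases before the start. SDHB (chr1:17054033-17054282, minus strand) holds 1 ETS word before the start, and its YY1 word lies just after the start and outside the stretch shown. ATP5E (listed as ATP5F1E, chr20:59032336-59032585, minus strand), which did not pass, holds none.
ATP5G1: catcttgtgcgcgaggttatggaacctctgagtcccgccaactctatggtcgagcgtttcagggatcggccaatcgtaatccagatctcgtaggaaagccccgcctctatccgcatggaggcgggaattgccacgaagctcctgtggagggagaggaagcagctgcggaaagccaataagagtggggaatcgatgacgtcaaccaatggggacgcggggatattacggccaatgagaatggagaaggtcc
NDUFS3: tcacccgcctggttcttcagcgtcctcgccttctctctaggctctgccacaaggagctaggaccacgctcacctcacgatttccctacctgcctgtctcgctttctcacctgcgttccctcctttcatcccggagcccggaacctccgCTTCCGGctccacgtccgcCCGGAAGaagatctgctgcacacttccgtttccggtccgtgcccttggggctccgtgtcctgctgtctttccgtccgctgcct
SDHB: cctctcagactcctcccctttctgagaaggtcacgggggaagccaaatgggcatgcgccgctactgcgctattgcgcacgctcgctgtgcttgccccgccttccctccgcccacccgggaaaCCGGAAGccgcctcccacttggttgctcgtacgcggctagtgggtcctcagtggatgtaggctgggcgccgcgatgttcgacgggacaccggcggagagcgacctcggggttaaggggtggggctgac
ATP5E: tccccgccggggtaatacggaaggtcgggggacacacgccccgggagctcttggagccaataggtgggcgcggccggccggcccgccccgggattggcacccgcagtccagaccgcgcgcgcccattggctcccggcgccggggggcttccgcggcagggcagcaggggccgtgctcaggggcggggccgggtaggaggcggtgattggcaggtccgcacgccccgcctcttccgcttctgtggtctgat

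The levels of the 77 genes per length of transcript covered a wide range. In CPM per kilobase of the median GENCODE transcript, with NSP siRNA and vehicle, ATP5B was highest at 877, followed by NDUFB4 at 553 and COX7C at 518. NDUFV2 was lowest at 1.01, a value made uncertain by its pseudogene, followed by NDUFA9 at 4.30. The rank of NDUFA9 rests on its median transcript of 4502.5 bases, the longest of the 77. Before division by length it was at 19.4 CPM, above NDUFA13 at 6.90 and NDUFB8 at 7.71. The median transcript of the 77 genes was 753 bases long, against 2383 over all tested genes with a length, so genes of like level and length stand beside them. Among other genes of at least 10 CPM with transcripts under 1000 bases, 52.5% of 735 fell under vehicle and 51.8% under DHT, with medians of -0.21 and -0.20. Of the 48 respiratory chain genes of that kind, 83.3% and 75% fell, with medians of -0.29 and -0.26. Among other genes of at least 10 CPM with transcripts of 1000 bases or more, 39.4% fell under vehicle and 41.2% under DHT. Of the 26 respiratory chain genes of that kind, 69.2% fell in each.

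Other nuclear genes of the mitochondrion gave the setting for these changes. Of 51 tested assembly factors, which build the complexes without staying in them, 28 fell and 1 rose under vehicle (median -0.21). ECSIT and LYRM7, which serve complexes I and III, and ATPAF1, which serves ATP synthase, fell by 0.93, 0.63 and 0.63 on the log2 scale. All but 3 of the 14 genes of the tricarboxylic acid cycle list fell (11, median -0.35), with CS, the citrate synthase gene, at -0.76. Of 26 tested genes of protein import, 24 fell and 1 rose (median -0.45), with TOMM40, the pore of the outer membrane, at -1.02. Of 77 mitochondrial ribosomal protein genes, 66 fell and none rose (median -0.40). Of 7 genes by which electrons enter the chain elsewhere, 5 fell (median -0.45), among them ETFDH at -0.45. These counts are read against the 26.3% of all genes that fell under vehicle, and the lists were chosen with earlier results of these data known. Of genes outside the 77, 40.1% of those of at least 10 CPM and 45.2% of those of at least 50 CPM fell. The lists were not matched for level.

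**Figure D4:**
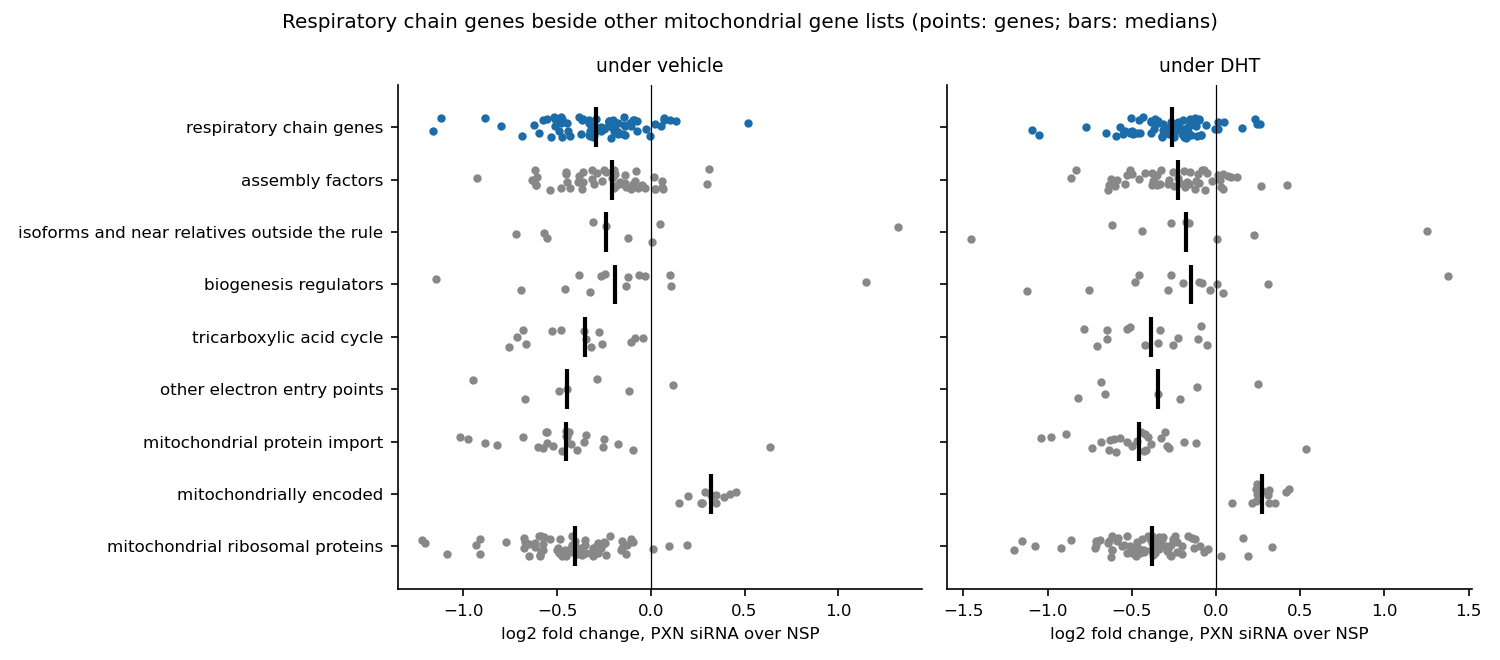
Log2 fold change of PXN siRNA over NSP siRNA (horizontal axis) of the tested genes (points) in each list, with list medians (bars), under vehicle (left) and DHT (right); vertical scatter within a list has no meaning. The respiratory chain genes lie around -0.29 and -0.26, the mitochondrial ribosomal proteins around -0.40 and -0.38, and the mitochondrially encoded genes above 0.

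The carrier between complexes III and IV, CYCS (cytochrome c), fell from 236 ± 23.8 to 159 ± 14.7 CPM under vehicle (SD, n = 3, -0.57) and by 0.61 on the log2 scale under DHT. NDUFAB1, a complex I subunit outside the naming pattern, fell by 0.56 and 0.44. Of the tissue-restricted isoforms, COX7B2 rose from 0.755 ± 0.179 to 1.89 ± 0.333 CPM under vehicle, while COX4I2, COX6A2 and COX7A1 had too few counts to test. Among 14 regulators of mitochondrial biogenesis, 7 fell and 1 rose under vehicle. MYC fell by 1.15, PPRC1 by 0.69 and TFAM, which packages and transcribes mitochondrial DNA, by 0.46 on the log2 scale. NRF1, GABPA and YY1 did not pass, at -0.13, -0.12 and -0.03. PPARGC1A rose from a very low level, 0.293 ± 0.023 to 0.652 ± 0.0493 CPM.

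DHT was compared with vehicle within each siRNA, and few genes of any kind passed in the fit used throughout. With the replicate number as a block, 2236 of all 18468 genes passed with NSP siRNA and 346 with PXN siRNA, against 900 and 34. The values below are from the fit without the block unless stated. With NSP siRNA, 1 of the 77 genes fell and none rose, against 2.16% of all genes lower and 2.72% higher (edgeR); 1 gene had an unadjusted p under 0.05, and DESeq2 also called 1. That gene was NDUFB4, at 402, 332 and 379 CPM with vehicle and at 324, 257 and 290 CPM with DHT. The DHT libraries were all below the vehicle libraries, and the log2 fold change was -0.35 (adjusted p = 0.0357, edgeR). The call was lost without replicate 1 or 3 of the NSP vehicle group, replicate 2 or 3 of the NSP DHT group, or replicate 3 of either PXN siRNA group, with adjusted p up to 0.227. By complex, the medians were between -0.05 and -0.03.

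With PXN siRNA, none of the 77 genes passed for DHT, against 0% of all genes lower and 0.184% higher; 6 had an unadjusted p under 0.05, and DESeq2 called 0. The smallest p belonged to NDUFS7, at 9.75, 9.42 and 11.7 CPM with vehicle and 12.5, 15.1 and 12.3 CPM with DHT, which did not overlap (0.37, adjusted p = 0.327, edgeR). ATP5D stood at 0.37 as well (adjusted p = 0.394), with replicate 2 under DHT the highest. NDUFB4 was lower by 0.21 and did not pass (adjusted p = 0.63). With the replicate number as a block it passed, at an adjusted p of 0.048. The DHT comparisons share their libraries with the PXN comparisons, so these values are not independent of those above.

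The interaction, which asks whether PXN siRNA acts differently under DHT and vehicle, passed for none of the 77 genes, against 0% of all genes in either direction (edgeR). None of the 77 had an unadjusted p under 0.05, and DESeq2 called 0. The smallest p was that of ATP5D, with a difference of 0.29 (SE 0.169, adjusted p = 1). The next smallest belonged to NDUFC2 and NDUFA4, with a difference of -0.15 in each (SE 0.0992 and 0.102). NDUFC2 was at 38.8, 37.4 and 37.0 CPM against 33.5, 40.3 and 38.9 CPM under vehicle and at 42.8, 40.9 and 38.9 CPM against 36.3, 37.7 and 36.4 CPM under DHT. NDUFA4 was at 317, 323 and 290 CPM against 302, 345 and 298 CPM under vehicle and at 324, 308 and 290 CPM against 288, 289 and 267 CPM under DHT. In both genes the siRNA groups overlapped under vehicle and not under DHT. For ATP5G1 and COX6C the difference was 0.07 in each, with SE of 0.196 and 0.113. A p that misses the threshold does not show that the responses were alike.

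Some of the counts rest on gene models that share sequence. With an unknown strand setting, reads of overlapping genes may be assigned to either. Exons of another gene covered more than 20% of the exons of 5 genes on the same strand and of 10 genes on the other strand. NDUFB8 and NDUFA13, which did not pass, were among the former, and ATP5I and NDUFS7 among the latter.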

How the data were processed

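RNA-seq gene counts of 12 LNCaP libraries, 3 in each of 4 groups, were analysed. Groups were read from the sample labels. Per the labels' protocols, an RNeasy Plus Mini kit was used for extraction and TruSeq Stranded mRNA for library preparation. The file deposited by the authors holds raw counts as whole numbers, 1 row per gene symbol, which the submitters' processing notes assign to featureCounts. Trimmomatic 0.32, STAR 2.4.2a, Subread 1.5.0p3 and the GRCh38 build are named in the submitters' processing notes. The annotation, the strand setting and how multiply mapped reads were treated were not given in the sources used here.

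The tests used edgeR 4.0.16 under R 4.3.3, and the alternatives also DESeq2 1.42.0 and limma 3.58.1. Genes passing filterByExpr (18468 of 36137) were scaled by TMM and fitted with 4 group means over all 12 libraries (8 residual degrees of freedom). Quasi-likelihood p-values were Benjamini-Hochberg adjusted over all genes tested, and a gene was called under 0.05. CPM use TMM-scaled library sizes, and the SE is the log2 fold change over the square root of F. The members and lists were chosen with earlier results of these data known. Genes given in full are, per complex, the 2 called genes with the lowest and the 1 with the highest positive change and no overlap between groups, all SDH genes, the subunit c genes, and the 3 smallest p for each DHT comparison and the interaction; other members may be named. Of the genes this rule gives, 1 is not reported here; it stays in the counts and medians. COX4I1, COX5B, ATP5E and the other members outside that rule were picked after their values were seen. Transcript lengths and positions come from GENCODE 29 on GRCh38.

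The replicate number was checked as a pairing. Same-numbered libraries deviated together with correlations of 0.121 to 0.210 between the vehicle groups, 0.145 to 0.383 between the NSP groups and 0.100 to 0.307 between the PXN siRNA groups. Between the DHT groups the correlations were 0.0769 to 0.284, so not every pair passed 0.1. This limit, set before the blocked calls were seen, was passed by every same-numbered pair in the comparisons named before. The fit used throughout has no block, and the block is given as an alternative. The pairing comes from the label numbers only. Replicates differed by more than sampling noise in every pair (chi-square per gene 6.70 to 29.8).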

Additional observations from a re-analysis of the deposited data

How the results depend on the processing

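The counts of respiratory chain genes were recomputed under other scalings, filters, tests, thresholds and sets of libraries. Cyclic loess scaling with limma-voom, chosen after seeing the data, gave 38 lower and 5 higher genes for PXN siRNA under vehicle and 32 lower and 6 higher under DHT. Of all 18468 genes, cyclic loess scaling called 4480 and 4533 higher. Upper-quartile scaling gave 5 higher under vehicle, beside 5668 of all genes. A test against a fold change of 1.2 left 21 lower under vehicle and 19 lower and 0 higher under DHT. Over all genes, that test called 2736 lower under vehicle, and 2861 lower and 2962 higher under DHT. Adjusted p under 0.01 left 1 higher under DHT, beside 3232 of all genes. For DHT with NSP siRNA the 1 lower gene became 0 with DESeq2 size factors, with only the groups compared, at adjusted p under 0.01 and against a fold of 1.2. SDHA under DHT turned to 0.000129 with cyclic loess. Of the named genes' values under the alternatives, 91 lost and 24 gained their call.

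Leaving out 1 library at a time over the same genes gave 45 to 60 lower and 0 to 1 higher under vehicle, 48 to 59 lower and 0 to 3 higher under DHT, and 0 to 1 lower for DHT with NSP siRNA. Over all 18468 genes, 4179 to 4965 were then lower under vehicle, 4384 to 5241 under DHT, and 124 to 689 for DHT with NSP siRNA. Of 58 calls under vehicle and 57 under DHT, 43 and 43 were kept without each library. With the low-count filter run again on each set of 11 libraries, 47 and 45 were kept; the first form was taken after both had been computed. Under every alternative but the stricter thresholds, 37 and 31 calls were kept.

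Adding the replicate block to the model gave 61 genes lower under vehicle and 60 under DHT, and 1 (NDUFB4) lower for DHT with PXN siRNA. For PXN siRNA under vehicle and DHT, the block called 5422 and 5501 of all 18468 genes lower, against 4853 and 4939 without it. Over all genes, the block called 2236 against 900 for DHT with NSP siRNA, 346 against 34 for DHT with PXN siRNA and 58 against 0 for the interaction. DESeq2 called 143 and 37 for the last 2, and edgeR without the low-count filter 188 and 35. The 1.2-fold test called 5404 and 5823 genes for PXN siRNA under vehicle and DHT (9276 and 9561 before), and 279 and 16 for DHT with NSP and PXN siRNA. Adjusted p under 0.01 called 406 and 11 for the DHT comparisons, and leaving out 1 library 424 to 1362 and 8 to 71, with 0 to 43 for the interaction.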
